A study of Mus musculus with 15 samples.

Results

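The genes described here are 42 genes of the cell division cycle, 23 that act in DNA replication or in entry into it and 19 that act in mitosis. They were followed across normal colon and tumours of mice with mutations in Apc and Olfm4. The members were fixed by name, each gene was read from its brightest probe set over the 15 arrays, among those annotated to its symbol alone, and 41 of the 42 could be read, out of 18193 genes measured in that way. The mitotic cyclin Ccnb1 was not analysed here. The replication group takes in the Mcm, Gins, Rrm, Pol and Rfc genes, Cdc6 and Pcna, and with them were placed Cdt1, Cdc45, Tyms, Ccne1, Ccne2 and E2f1, which act before or in S phase.

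Expression was measured on 15 Affymetrix Mouse430_2 arrays, 3 in each of 5 groups, all from male mice aged 3 months on a mixed background of C57BL/6 and 129. Wild type colon was APC+/+/Olfm4+/+, APC mutant colon was APC+/- with both Olfm4 copies intact, and Olfm4 mutant colon was APC+/+/Olfm4-/-. The double mutant mice, APC+/-/Olfm4-/-, gave both adjacent tissue, taken beside a tumour, and tumour tissue. The labels do not name the Apc allele or how Olfm4 was removed, and RNA came from whole pieces of colon with no cell type sorted out. By their titles the 6 double mutant arrays come from 2 animals: the first gave 1 adjacent and 1 tumour array, and the second gave 2 of each. The title of Olfm4 mutant replicate 3 joins digits of the other animals of that group, so the 3 arrays and the SD of that group may not stand for 3 separate animals. In such pieces, fewer dividing cells and less of these RNAs per cell cannot be told apart.

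A cell copies its DNA once per division. In G1 the origin licensing factors Cdc6 and Cdt1 load the ring-shaped Mcm helicase onto origins, and in S phase Cdc45 and the Gins proteins turn it into a working helicase that polymerases follow, held on DNA by the Pcna clamp. Cyclin E (Ccne1, Ccne2) and the transcription factor E2f1 drive the entry into S phase, and E2F sites are known in promoters of many replication genes. Mitotic genes are switched on later, in G2, and many of their promoters carry the cell cycle homology region (CHR) with CCAAT boxes, which are bound by the DREAM and MuvB complexes and by NF-Y. In normal colon, division is confined to the lower crypt.

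The promoters of the members were searched for these elements. RefSeq promoters of the assembly GRCm38.p6, each running from 250 bases before to 50 bases after a gene's start, were at hand for 18 of 23 replication genes (19 promoters) and 15 of 19 mitosis genes (15 promoters, Ccnb1 among them). Members with no entry were Aurkb, Ccna2, Ccne2, Cdc25c, Gins1, Gins2, Kif20a, Mcm4 and Pole. The E2F element was searched as TTTCCCGC, TTTCGCGC, TTTGCCGC or TTTGGCGC, the CHR as TTTGAA, and the CCAAT box as CCAAT, each on both strands. None of these strings contains another, though matches can share bases. An E2F match was in 8 of 19 replication promoters (42.1%) and in 1 of 15 mitosis promoters (6.67%), that of Cdk1, against 2.26% of all 32851 promoters. A CHR together with a CCAAT box was in 10 of 15 mitosis promoters (66.7%) and 2 of 19 replication promoters (10.5%), those of Mcm2 and Cdc45, against 6.95% of all promoters. A CCAAT match, with or without a CHR, was common, in 68.4%, 86.7% and 37.4% of replication, mitosis and all promoters.

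The called members with the largest rises in tumours that carry each pattern are printed here, 5′ to 3′ from RefSeq GRCm38.p6, with every E2F, CHR and CCAAT match in capitals. A match is a string of letters, not a shown binding site. Cdc6 and Mcm3 show the E2F letters of replication genes, and Top2a and Bub1b the CHR and CCAAT letters of mitosis genes.
Cdc6, chr11:98907901-98908200, plus strand: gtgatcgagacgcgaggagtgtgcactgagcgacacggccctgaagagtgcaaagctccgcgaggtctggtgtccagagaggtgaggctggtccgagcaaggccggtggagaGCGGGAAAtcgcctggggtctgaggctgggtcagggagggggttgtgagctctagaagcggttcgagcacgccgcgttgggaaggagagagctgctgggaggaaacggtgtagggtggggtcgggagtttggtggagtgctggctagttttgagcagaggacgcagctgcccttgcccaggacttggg
Mcm3, chr1:20820263-20820562, minus strand: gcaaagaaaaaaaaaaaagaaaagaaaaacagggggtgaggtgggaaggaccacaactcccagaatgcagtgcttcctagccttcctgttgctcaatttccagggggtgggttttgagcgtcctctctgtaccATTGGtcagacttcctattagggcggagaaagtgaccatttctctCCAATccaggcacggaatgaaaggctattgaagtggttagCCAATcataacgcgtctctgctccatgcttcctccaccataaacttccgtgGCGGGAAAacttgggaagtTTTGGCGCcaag
Top2a, chr11:99024140-99024439, minus strand: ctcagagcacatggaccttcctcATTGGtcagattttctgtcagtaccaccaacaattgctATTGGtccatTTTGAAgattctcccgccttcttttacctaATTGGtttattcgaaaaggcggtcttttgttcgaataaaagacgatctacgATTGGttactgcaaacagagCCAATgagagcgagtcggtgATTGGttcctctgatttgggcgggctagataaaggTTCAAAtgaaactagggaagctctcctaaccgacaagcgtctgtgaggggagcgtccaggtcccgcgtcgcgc
Bub1b, chr2:118597961-118598260, plus strand: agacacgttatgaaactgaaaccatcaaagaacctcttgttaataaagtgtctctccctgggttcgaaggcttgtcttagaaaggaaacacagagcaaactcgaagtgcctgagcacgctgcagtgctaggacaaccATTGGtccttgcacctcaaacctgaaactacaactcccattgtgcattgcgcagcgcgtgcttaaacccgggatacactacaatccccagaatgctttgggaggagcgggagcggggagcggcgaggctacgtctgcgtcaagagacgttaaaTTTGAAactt

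Cdc6 holds a lone E2F match and none of the other letters. Mcm3 holds 2 E2F matches close to the end of the window and 3 CCAAT boxes upstream of them. Top2a carries 2 CHR and 6 CCAAT matches, and Bub1b 1 of each. In the larger lists an E2F match was in 22.7% of 44 promoters of other replication genes and in 10.6% of 47 promoters of other mitosis genes. CHR and CCAAT together were in 2.27% and 57.4% of them. These shares describe letters and were not tested.

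Values are on the log2 scale of the deposited table, where a difference of 1 is a 2-fold change and the whole table runs from 2.56 to 14.96. The single Olfm4 probe set lay near the floor in wild type (mean 3.07 ± 0.067, SD, n = 3), so it gives no check of that genotype. The brightest Apc probe set was not lower with the mutation, at 10.18 ± 0.13 for wild type, 10.61 ± 0.18 for APC mutant and 11.19 ± 0.099 for tumour arrays. With the allele not named, it is unknown whether this probe set reads the mutated copy, so it does not check the APC+/- label. Bacterial RNAs of fixed sequence added to each sample differed between groups: their 3-prime minus 5-prime signal was 2.12 ± 0.076 (SD, n = 3) for wild type, 2.31 ± 0.19 for APC mutant and 2.75 ± 0.53 for Olfm4 mutant colon, but 4.13 ± 0.27 beside tumours and 4.94 ± 0.24 within them. The arrays were numbered in blocks by group, so array order and group cannot be told apart. Against the labels, epithelial markers (Epcam, Cdh1, Krt8, Krt18, Vil1) were high in all 5 groups, with list means per array from 13.58 to 13.92. Fits were made with limma over all 18193 genes, and a gene is called where its Benjamini-Hochberg adjusted p is under 0.05.

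Most of these genes were at their highest in the tumours. The 23 replication genes averaged 9.36 ± 0.19 (SD, n = 3) for wild type, 9.40 ± 0.25 for APC mutant and 9.58 ± 0.19 for Olfm4 mutant colon, 9.67 ± 0.078 beside tumours and 10.72 ± 0.08 within them. The 18 mitosis genes averaged 9.50 ± 0.34, 9.61 ± 0.07, 9.52 ± 0.35, 9.68 ± 0.36 and 10.47 ± 0.11 in the same order. Single non-tumour arrays ran from 9.12 to 9.78 for the replication mean and from 9.12 to 9.89 for the mitosis mean, all below the 3 tumour arrays. Of single genes, 21 of 23 replication and 14 of 18 mitosis members had all 3 tumour arrays above all 12 other arrays, as had 17.2% of all genes. The members outside that pattern were Pcna, Tyms, Cdc25c, Plk1, Birc5 and Mki67. The replication gene with its highest mean elsewhere was Tyms, in Olfm4 mutant colon.

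**Figure D1:**
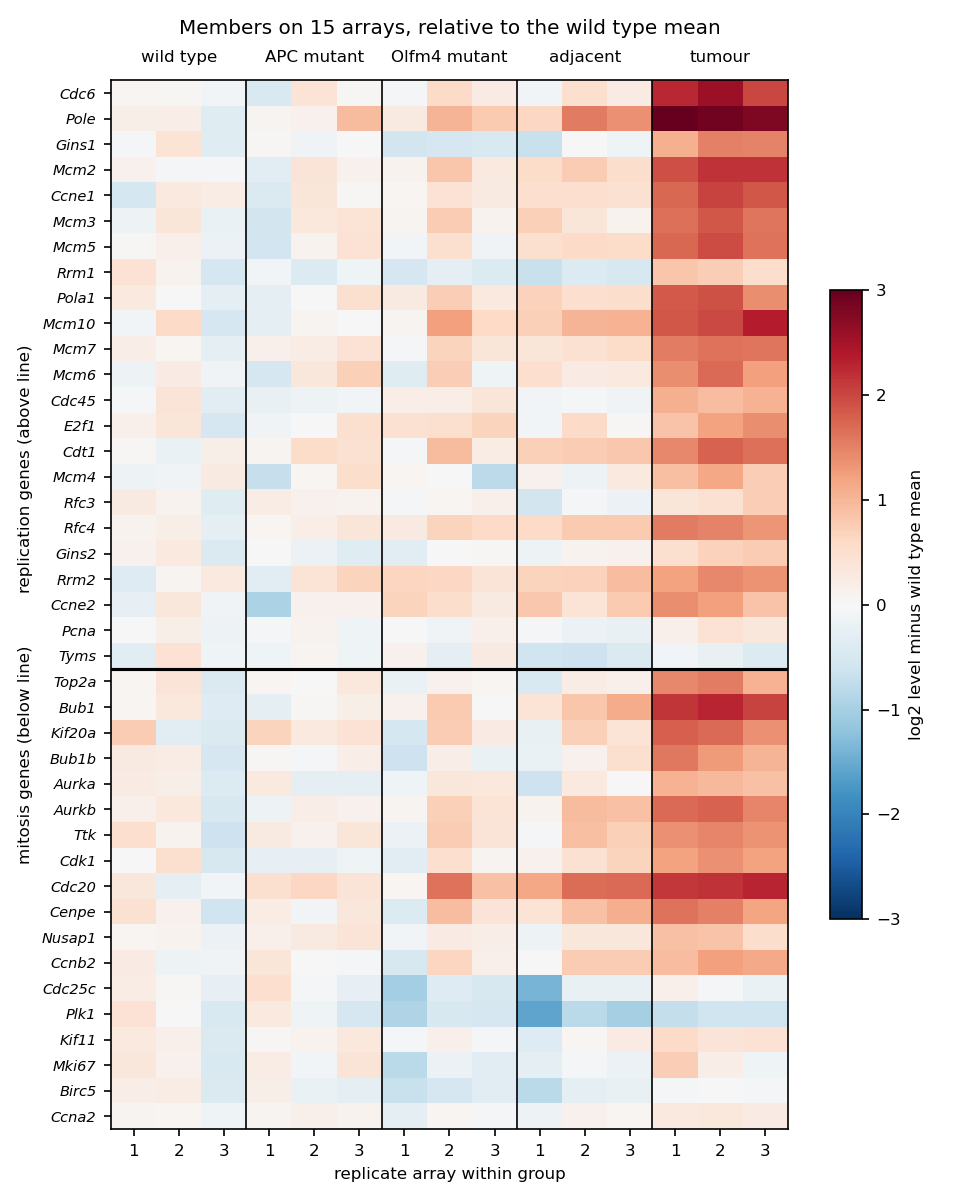
Each cell is the log2 level of a member on an array minus its wild type mean, with 15 arrays as columns in 5 groups and replication genes above the line, mitosis genes below. The tumour columns are red for most rows, while Tyms, Plk1, Cdc25c, Birc5 and Mki67 stay pale or blue, and adjacent replicate 1 is paler than the other adjacent arrays among mitosis genes.

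The comparison of tumour with adjacent tissue asks how division genes differ between a tumour and the colon beside it in the double mutants. In the replication group 20 of 23 genes rose and 0 fell, with a median difference of 1.09, and in the mitosis group 9 of 18 rose and 0 fell, with a median of 0.66. Of all genes 14.3% were called higher and 13.8% lower, and the median of all genes was 0.00. All 41 members had a positive difference, from 0.27 for Ccna2 to 2.06 for Cdc6, and in 40 of 41 the 3 tumour arrays lay above all 3 adjacent arrays, as in 23.6% of all genes. The exception was Mki67. The spike-in signal rose from 4.13 to 4.94 beside these differences. With it as a covariate 9 replication and 1 mitosis gene were called, and 23 of 23 and 17 of 18 differences stayed positive, with medians of 0.71 and 0.40. The share of all genes called in that fit is not given here, so the fall in calls cannot be read as particular to these genes.

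Both licensing factors rose. Cdc6, which recruits the helicase to origins, stood at 7.23, 7.20 and 7.10 on the wild type arrays, 6.73, 7.58 and 7.22 on the APC mutant arrays, 7.15, 7.76 and 7.42 on the Olfm4 mutant arrays, 7.08, 7.67 and 7.42 beside tumours and 9.43, 9.74 and 9.17 within them. Its tumour arrays lay well clear of the other 12, a 4.17-fold difference from adjacent tissue, 2.06 (SE 0.229, adjusted p = 2.9e-05). Cdt1, its partner in loading, stood at 10.47, 10.24 and 10.62 on the wild type arrays, 10.53, 10.99 and 10.90 on the APC mutant arrays, 10.42, 11.38 and 10.66 on the Olfm4 mutant arrays, 11.17, 11.21 and 11.26 beside tumours and 11.88, 12.21 and 12.09 within them, and rose by 0.85 (SE 0.213, adjusted p = 0.0093). Here the adjacent arrays also sat above the wild type ones.

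All of Mcm2 to Mcm7, the 6 subunits of the helicase ring, rose. Mcm2 stood at 9.36, 9.19 and 9.18 on the wild type arrays, 8.90, 9.63 and 9.38 on the APC mutant arrays, 9.36, 10.07 and 9.53 on the Olfm4 mutant arrays, 9.79, 10.002 and 9.78 beside tumours and 11.18, 11.41 and 11.41 within them, a rise of 1.48 (SE 0.198, adjusted p = 0.00012). Mcm3 stood at 9.17, 9.68 and 9.12 on the wild type arrays, 8.78, 9.64 and 9.72 on the APC mutant arrays, 9.39, 10.09 and 9.44 on the Olfm4 mutant arrays, 10.03, 9.69 and 9.42 beside tumours and 10.98, 11.18 and 10.93 within them, a rise of 1.31 (SE 0.267, adjusted p = 0.0025). Tumours did not overlap any other group for either gene. The remaining ring subunits rose by 1.23 (Mcm5), 1.12 (Mcm7), 1.09 (Mcm6) and 0.84 (Mcm4). The call of Mcm4 (adjusted p = 0.046) ended in 10 of 22 alternative fits. With the spike-in covariate Mcm2 and Mcm7 stayed called at 1.09 and 0.78, while Mcm3, Mcm5, Mcm4 and Mcm6 did not pass at 0.83, 0.69, 0.27 and 0.26. Mcm10, which helps to start the fork, stood at 8.20, 8.85 and 7.79 on the wild type arrays, 8.01, 8.35 and 8.28 on the APC mutant arrays, 8.37, 9.51 and 8.87 on the Olfm4 mutant arrays, 8.997, 9.29 and 9.33 beside tumours and 10.15, 10.25 and 10.63 within them, and rose by 1.14 (SE 0.289, adjusted p = 0.0098). Its levels in adjacent tissue lay between wild type and tumour.

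Cdc45 and the Gins proteins, which complete the helicase, also rose. Gins1 stood at 8.26, 8.72 and 7.95 on the wild type arrays, 8.35, 8.20 and 8.31 on the APC mutant arrays, 7.76, 7.80 and 7.86 on the Olfm4 mutant arrays, 7.65, 8.29 and 8.17 beside tumours and 9.38, 9.81 and 9.80 within them, and was 3.08-fold higher in tumours, 1.62 (SE 0.202, adjusted p = 6.7e-05). Its Olfm4 mutant arrays lay below all wild type arrays, and its adjacent arrays overlapped them. Cdc45 rose by 1.08 (SE 0.147, adjusted p = 0.00014) and Gins2 by 0.62 (SE 0.183, adjusted p = 0.023). Gins2 lost its call in 10 of 22 alternative fits.

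Among polymerases and their clamp, Pole, the catalytic subunit of the leading strand polymerase, stood at 7.58, 7.61 and 7.03 on the wild type arrays, 7.49, 7.53 and 8.35 on the APC mutant arrays, 7.67, 8.42 and 8.20 on the Olfm4 mutant arrays, 8.03, 8.97 and 8.78 beside tumours and 10.57, 10.31 and 10.21 within them. It was 3.41-fold higher in tumour than in adjacent tissue, 1.77 (SE 0.295, adjusted p = 0.00061). Its mean climbed through the 5 groups in the order in which the spike-in signal climbs, and neighbouring groups before the tumours overlapped. Pola1, of the polymerase that makes primers, rose by 1.14 (SE 0.216, adjusted p = 0.0015), and the clamp loader subunits Rfc3 and Rfc4 by 0.78 and 0.74. Pcna, the clamp itself, had the smallest rise among the called replication genes. It stood at 12.61, 12.81 and 12.49 on the wild type arrays, 12.59, 12.74 and 12.51 on the APC mutant arrays, 12.62, 12.53 and 12.79 on the Olfm4 mutant arrays, 12.57, 12.46 and 12.42 beside tumours and 12.78, 13.07 and 12.98 within them, a rise of 0.46 (SE 0.12, adjusted p = 0.011), with the lowest tumour array below the highest of wild type.

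Of the enzymes that supply nucleotides, Rrm1, the large subunit of ribonucleotide reductase, rose by 1.22 (SE 0.198, adjusted p = 0.00051). Its partner Rrm2 stood at 11.58, 12.07 and 12.27 on the wild type arrays, 11.64, 12.38 and 12.65 on the APC mutant arrays, 12.62, 12.59 and 12.36 on the Olfm4 mutant arrays, 12.63, 12.67 and 12.89 beside tumours and 13.18, 13.42 and 13.32 within them, and its difference was 0.58 (SE 0.23, adjusted p = 0.081). That gene's tumour arrays still lay above all others, and it was called in 9 of 22 alternative fits. Its other probe sets rose by 1.37 and 1.38 (adjusted p = 0.034 and 0.00025 over all probe sets). The thymidylate synthase Tyms stood at 7.12, 7.87 and 7.30 on the wild type arrays, 7.30, 7.52 and 7.30 on the APC mutant arrays, 7.55, 7.14 and 7.71 on the Olfm4 mutant arrays, 6.83, 6.81 and 6.99 beside tumours and 7.34, 7.21 and 7.02 within them, with a difference of 0.31 (SE 0.19, adjusted p = 0.26). Its tumour arrays lay above the adjacent ones but among those of the other groups. Its 3 other probe sets had means from 3.50 to 4.42 over the 15 arrays, near the floor of the table.

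Of the S phase entry genes, Ccne1 stood at 8.84, 9.66 and 9.58 on the wild type arrays, 8.92, 9.72 and 9.38 on the APC mutant arrays, 9.41, 9.80 and 9.62 on the Olfm4 mutant arrays, 9.86, 9.87 and 9.82 beside tumours and 11.09, 11.38 and 11.21 within them, a rise of 1.38 (SE 0.224, adjusted p = 0.00051). Its tumour arrays lay more than 1 unit above any other. Ccne2 differed by 0.49 (SE 0.27, adjusted p = 0.21), and E2f1 rose by 0.98 (SE 0.243, adjusted p = 0.0087) from an adjacent mean of 6.45 ± 0.34 to a tumour mean of 7.43 ± 0.27.

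**Figure D2:**
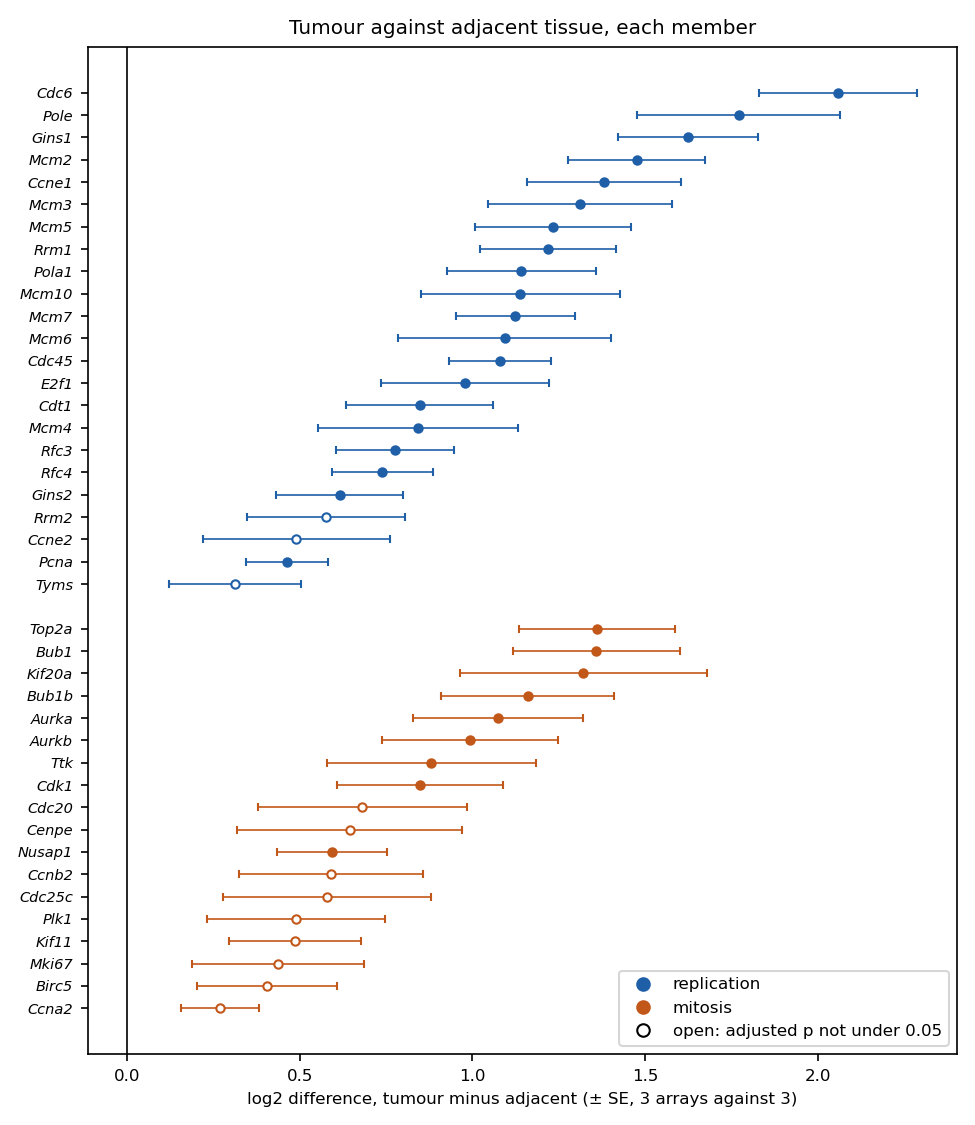
The log2 difference of tumour minus adjacent tissue is given for each of 41 members with its standard error (3 arrays against 3), replication genes in blue and mitosis genes in orange, and open circles where the adjusted p is not under 0.05. All points lie right of 0, from 0.27 for Ccna2 to 2.06 for Cdc6, with 3 open circles among replication and 9 among mitosis genes.

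The 9 mitosis genes that rose were Top2a, Bub1, Kif20a, Bub1b, Aurka, Aurkb, Ttk, Cdk1 and Nusap1. Top2a, the topoisomerase that untangles sister chromatids, stood at 9.60, 9.91 and 9.09 on the wild type arrays, 9.59, 9.52 and 9.84 on the APC mutant arrays, 9.33, 9.66 and 9.58 on the Olfm4 mutant arrays, 9.08, 9.76 and 9.67 beside tumours and 10.96, 11.06 and 10.57 within them. The 4 non-tumour groups overlapped and the tumours were 2.57-fold above adjacent tissue, 1.36 (SE 0.226, adjusted p = 0.00061). The checkpoint kinase Bub1 stood at 8.36, 8.64 and 7.94 on the wild type arrays, 8.02, 8.34 and 8.48 on the APC mutant arrays, 8.44, 9.10 and 8.32 on the Olfm4 mutant arrays, 8.72, 9.15 and 9.44 beside tumours and 10.46, 10.60 and 10.33 within them, a rise of 1.36 (SE 0.242, adjusted p = 0.00099). Its relative Bub1b, which restrains the anaphase promoting complex, stood at 9.53, 9.50 and 8.77 on the wild type arrays, 9.31, 9.24 and 9.48 on the APC mutant arrays, 8.65, 9.46 and 9.06 on the Olfm4 mutant arrays, 9.08, 9.40 and 9.74 beside tumours and 10.85, 10.56 and 10.29 within them, a rise of 1.16 (SE 0.251, adjusted p = 0.0037). The tumour arrays of both genes exceeded every other array.

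Aurka, the kinase of the spindle poles, stood at 9.31, 9.24 and 8.66 on the wild type arrays, 9.35, 8.81 and 8.80 on the APC mutant arrays, 8.94, 9.40 and 9.38 on the Olfm4 mutant arrays, 8.44, 9.37 and 9.07 beside tumours and 10.10, 10.05 and 9.95 within them, a rise of 1.07 (SE 0.246, adjusted p = 0.0053). Aurkb, the kinase of the chromosomal passenger complex, stood at 8.72, 8.88 and 8.07 on the wild type arrays, 8.41, 8.74 and 8.68 on the APC mutant arrays, 8.65, 9.26 and 8.96 on the Olfm4 mutant arrays, 8.65, 9.51 and 9.44 beside tumours and 10.25, 10.31 and 10.01 within them, a rise of 0.99 (SE 0.255, adjusted p = 0.01). Within adjacent tissue both were lowest on replicate 1, the array of the first animal. The kinesin Kif20a, needed for cytokinesis, stood at 8.53, 7.43 and 7.33 on the wild type arrays, 8.44, 8.05 and 8.21 on the APC mutant arrays, 7.24, 8.53 and 8.02 on the Olfm4 mutant arrays, 7.53, 8.47 and 8.16 beside tumours and 9.54, 9.45 and 9.13 within them, a rise of 1.32 (SE 0.358, adjusted p = 0.014). The checkpoint kinase Ttk, the mitotic kinase Cdk1 and the spindle protein Nusap1 rose by 0.88, 0.85 and 0.59, with adjusted p = 0.045, 0.017 and 0.013. Read from its most variable probe set, Nusap1 gave -0.005, but that probe set was dim, with a mean of 4.77 over the 15 arrays against 10.53 for the kept one.

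The mitosis members that did not pass include genes often used to count dividing cells. Mki67, the Ki-67 antigen, stood at 11.93, 11.71 and 11.13 on the wild type arrays, 11.81, 11.51 and 11.99 on the APC mutant arrays, 10.79, 11.41 and 11.24 on the Olfm4 mutant arrays, 11.32, 11.53 and 11.40 beside tumours and 12.33, 11.78 and 11.45 within them, a difference of 0.44 (SE 0.249, adjusted p = 0.23). Its highest value was tumour replicate 1, and tumour replicate 3 lay below several wild type and APC mutant arrays. Birc5 (survivin) differed by 0.40 (adjusted p = 0.17), the cyclins Ccna2 and Ccnb2 by 0.27 (adjusted p = 0.097) and 0.59 (adjusted p = 0.12), and the kinesins Kif11 and Cenpe by 0.49 (adjusted p = 0.077) and 0.64 (adjusted p = 0.17). Cdc20, which activates the anaphase promoting complex, differed by 0.68 (adjusted p = 0.12) and the phosphatase Cdc25c by 0.58 (adjusted p = 0.18). Plk1, a kinase of mitotic entry, stood at 8.35, 7.92 and 7.45 on the wild type arrays, 8.20, 7.78 and 7.41 on the APC mutant arrays, 7.00, 7.43 and 7.40 on the Olfm4 mutant arrays, 6.32, 7.09 and 6.92 beside tumours and 7.20, 7.31 and 7.30 within them, a difference of 0.49 (SE 0.258, adjusted p = 0.19). Plk1 was highest in wild type and APC mutant arrays, and its tumour arrays fell below all 3 wild type arrays.

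**Figure D3:**
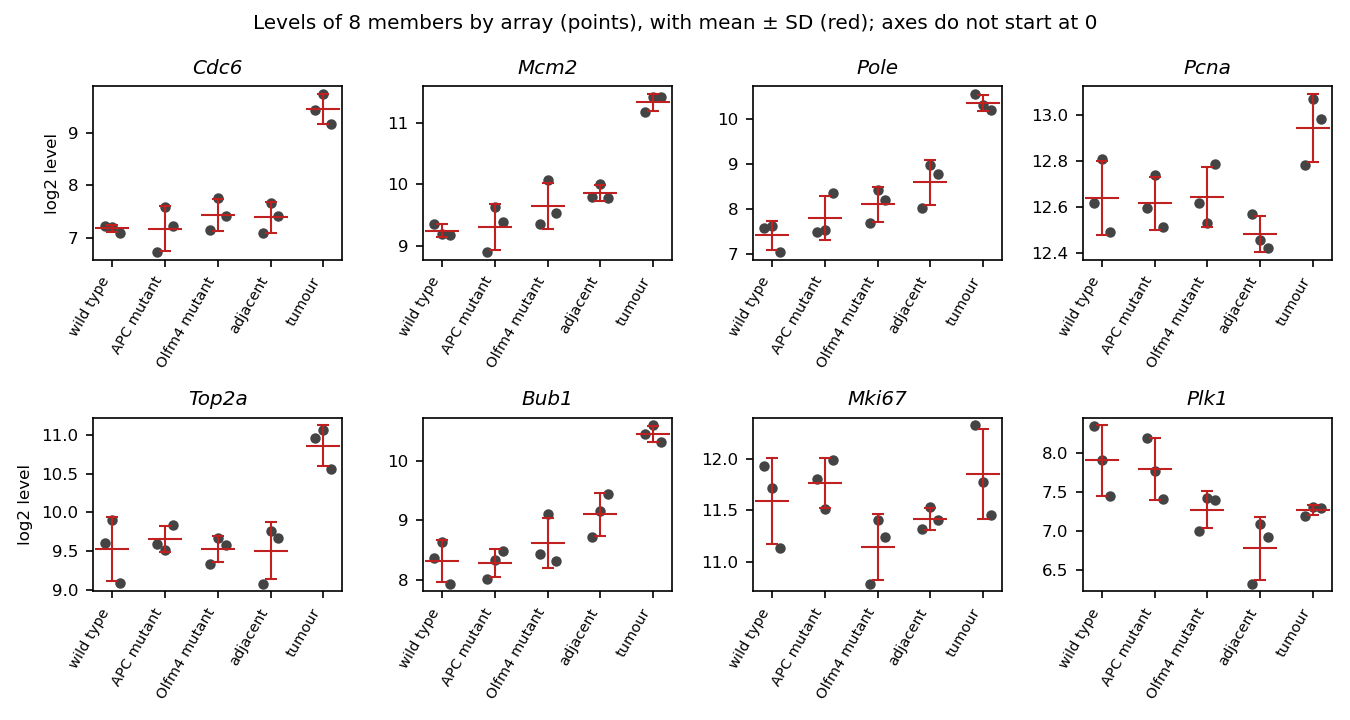
Log2 levels of 8 members are shown by group, each point an array, with the group mean and SD in red and axes that do not start at 0. Cdc6, Mcm2, Pole, Top2a and Bub1 have tumour arrays clear of all others, whereas for Plk1 they lie below the 3 wild type arrays, and for Mki67 only tumour replicate 1 lies above them.

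Within the animals, mitosis genes differed between the first and the second animal in 1 direction and replication genes in both, a contrast that was not tested. Tumour minus adjacent was a median of 0.97 in the first animal (1 array each) and 1.08 in the second (means of 2 arrays each) for replication genes, and 14 of 23 were larger in the first animal. For mitosis genes the medians were 1.14 and 0.48, and 18 of 18 were larger in the first animal. Over all genes the medians were -0.02 and 0.02, and 9494 of 18193 were larger in the first animal. Cdc25c gave 1.56 and 0.09, Mki67 1.01 and 0.15, and Kif20a 2.01 and 0.98. Among replication genes Pole gave 2.54 and 1.39, while Mcm2 gave 1.39 and 1.52 and Mcm5 1.24 and 1.23.

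Over the mitosis genes as a group the larger gap between animals was in adjacent tissue. Adjacent tissue of the first animal was lower than that of the second in 18 of 18 mitosis genes, with a median of -0.57 for first minus second, whereas the tumours of the 2 animals gave a median of 0.10. Mki67 went the other way, with -0.15 in adjacent tissue and 0.71 in tumours, and Bub1b gave -0.49 and 0.42. Of all genes, 8939 of 18193 were lower in adjacent tissue of the first animal, with a median of 0.01 for first minus second. The mean over mitosis genes was 9.27 in adjacent replicate 1 and 9.89 in each of the arrays of the second animal. Wild type colon spanned a like range, with 9.76, 9.61 and 9.12 on its 3 arrays, as did Olfm4 mutant colon with 9.14, 9.85 and 9.56. Without adjacent replicate 1 the count of mitosis genes that rose in tumours went from 9 to 5, and without tumour replicate 2 to 6, while replication genes went from 20 to 18 and 17. Without both arrays of the first animal 16 replication and 2 mitosis genes were called, from 2 arrays against 2. The share of all genes called in that fit is not given here. The first animal alone holds 1 array of each tissue, so only its differences are given, not calls. These 2 animals cannot give the spread between animals.

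**Figure D4:**
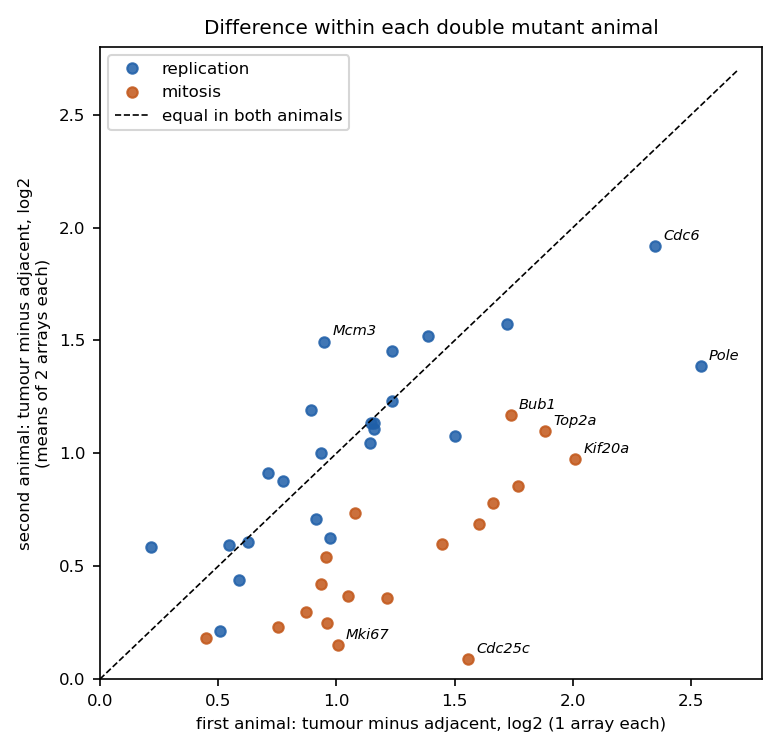
For each member the tumour minus adjacent log2 difference in the first double mutant animal (horizontal) is set against that in the second (vertical), with a dashed line of equal values. Replication genes (blue) lie on both sides of the line, 14 of 23 below it, and all 18 mitosis genes (orange) lie below it.

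The rest of the pathway was read from lists that hold no member. Of 40 measured other replication genes 23 rose and 0 fell in tumour against adjacent tissue, with a median of 0.66, and of 48 other mitosis genes 33 rose and 0 fell, with a median of 0.73. So the order of the 2 groups of members, with replication above mitosis in share called and in median, was not seen in the longer lists, and it was not tested. The checkpoint kinase Chek1 rose by 1.35 (adjusted p = 0.00062), the ligase Lig1 by 1.12 (adjusted p = 0.0033), Uhrf1, which copies DNA methylation, by 0.88 (adjusted p = 0.0012) and the single-strand binding subunit Rpa2 by 0.85 (adjusted p = 0.0013). Orc1, Pold1 and the thymidine kinase Tk1 did not pass, at 0.46 (adjusted p = 0.37), 0.37 (adjusted p = 0.31) and 0.47 (adjusted p = 0.35). Among mitotic genes Mad2l1 of the spindle checkpoint rose by 1.24 (adjusted p = 0.00011), Cenpf by 0.98 (adjusted p = 0.04), Cdca8 by 0.75 (adjusted p = 0.001) and Tpx2 by 0.64 (adjusted p = 0.025). Their regulators Mybl2 and Foxm1 rose by 0.93 (adjusted p = 0.0046) and 0.42 (adjusted p = 0.015). Ube2c, a ubiquitin conjugase of the anaphase promoting complex, was not called at 0.39 (adjusted p = 0.12). In the other mitosis list too, adjacent tissue of the first animal was the lower in 46 of 48 genes (median -0.52 for first minus second). It was the lower in 34 of 40 other replication genes (median -0.17) and in 8939 of all 18193 genes (median 0.01).

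Inhibitors and E2F family genes did not move as a block. Of 14 measured inhibitors and pocket proteins 2 rose and 2 fell, near the shares of all genes, 14.3% higher and 13.8% lower. Cdkn2a, which holds back Cdk4 and Cdk6, rose by 1.31 (SE 0.199, adjusted p = 0.00033), and Cdkn1c, chosen after its values were seen, rose by 2.46 (SE 0.3, adjusted p = 5.6e-05). Cdkn1a (p21) and Cdkn2b fell, at -0.56 (SE 0.144, adjusted p = 0.011) and -0.62 (SE 0.167, adjusted p = 0.014). Cdkn1b, Rb1 and Rbl1 stood at -0.26, -0.08 and -0.07, with adjusted p = 0.34, 0.74 and 0.84. Of 15 E2F and DREAM genes 4 rose and 0 fell: E2f7, a repressor among E2F proteins, by 1.31, Lin9 of the MuvB core by 1.04, and Rbbp4 and Mybl1, chosen after their values were seen, by 0.32 and 0.80. E2f2, E2f4 and E2f8 gave -0.26, -0.14 and 0.29, with adjusted p = 0.6, 0.61 and 0.29.

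Markers of other cells moved beside these genes in tumour against adjacent tissue. All 5 crypt stem cell markers rose, with list means from 8.56 to 9.23 in adjacent and 11.14 to 11.16 in tumour arrays, and all 5 absorptive cell markers fell, from means of 12.37 to 12.45 down to 8.46 to 9.24. All 5 smooth muscle markers fell, with means from 12.29 to 12.68 in adjacent and 8.20 to 10.21 in tumour arrays, and 3 of 3 neuronal and glial markers fell. Of 4 neutrophil markers 4 rose. Of 4 B cell markers 3 fell, and of 4 measured markers of germinal centre B cells, which divide, 1 rose and 2 fell, with list means from 7.37 to 7.51 in adjacent and 6.33 to 7.00 in tumour arrays. Of 5 epithelial markers 1 fell, and of 4 T cell markers 1 fell. Of 5 fibroblast markers 1 rose, and 0 of 5 macrophage and 0 of 4 endothelial markers were called. Their part in the results was not tested.

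Set against wild type colon, the tumours were higher in 22 of 23 replication genes and 12 of 18 mitosis genes, and 0 members were lower, where 29.3% of all genes were called higher and 20.1% lower. The medians were 1.45 and 1.18, beside 0.11 over all genes. In the lists that hold no member, 30 of 40 other replication genes were higher and 2 lower, and 39 of 48 other mitosis genes higher and 4 lower. The largest members were Pole at 2.95 (SE 0.295, adjusted p = 5e-06), Cdc6 at 2.27 (SE 0.229, adjusted p = 5.4e-06), Cdc20 at 2.19 (SE 0.303, adjusted p = 6.5e-05) and Bub1 at 2.15 (SE 0.242, adjusted p = 1.2e-05). Other probe sets gave less: 1.66 and 0.56 for Cdc20 (adjusted p over all probe sets = 0.00031 and 0.12) and 1.37 for Bub1 (adjusted p = 0.029). Not called were Tyms (-0.24), Ccna2 (0.29), Cdc25c (-0.03), Plk1 (-0.64, adjusted p = 0.056), Birc5 (-0.02), Mki67 (0.26) and Kif11 (0.46). The other Ccna2 probe set was called higher, at 1.02 (adjusted p over all probe sets = 0.00026). The other Kif11 probe sets were called both ways, at 1.04 and -1 (adjusted p = 0.00085 and 0.0054). With the spike-in covariate, which runs from 2.12 to 4.94 between these groups, 0 of 41 members and 0.0165% of all genes were called, and the median standard error of the members went from 0.23 to 0.80.

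Against APC mutant colon, from mice labelled APC+/- like the double mutants, 21 of 23 replication and 12 of 18 mitosis genes were higher and 0 lower (27.9% of all genes higher). The uncalled replication genes there were Rfc3 at 0.36 (adjusted p = 0.099) and Tyms at -0.18 (adjusted p = 0.45). Against Olfm4 mutant colon 19 and 14 were higher and 0 lower (21.1% of all genes higher). Plk1 stood at -0.01 (adjusted p = 0.99) there and at -0.53 (adjusted p = 0.11) against APC mutant colon. These comparisons share their tumour arrays with those above. The spike-in signal differs by group here as well, and with it as a covariate 0 members were called in either. The shares of all genes called in those fits are not given here.

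Colon that had not formed a tumour was compared next, which asks how these genes stand with either mutation or both. In APC mutant against wild type colon 0 of 41 members were called, as were 0% of all genes, with medians of 0.00 for replication and 0.11 for mitosis genes. At an unadjusted p under 0.05 there were 0 members and 1324 of all genes. The largest difference was that of Cdc20, 0.49 (SE 0.303, adjusted p = 0.77). The median standard error of the members was 0.23.

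In Olfm4 mutant against wild type colon 0 of 41 members were called, against 7.92% of all genes, and 9 members and 4467 of all genes had an unadjusted p under 0.05, so the members' share is near that of all genes. Among these 9, Rfc4 at 0.50 (SE 0.146, adjusted p = 0.054), Cdc20 at 0.85 (SE 0.303, adjusted p = 0.1), Pole at 0.69 (SE 0.295, adjusted p = 0.17), Mcm10 at 0.64, Rrm2 at 0.55 and E2f1 at 0.54 were higher, and Gins1 at -0.51, Plk1 at -0.63 and Birc5 at -0.50 lower. The medians were 0.26 for replication and 0.10 for mitosis genes. In the lists that hold no member, 7 of 40 other replication genes were higher and 1 lower, and 2 of 48 other mitosis genes higher and 2 lower.

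In adjacent tissue against wild type colon 8 members rose and 2 fell, near the shares of all genes called, 17.7% higher and 10.1% lower. The replication genes that rose were Pole at 1.18 (SE 0.295, adjusted p = 0.011), Mcm10 at 0.92, Cdt1 at 0.77, Rrm2 at 0.76, Rfc4 at 0.72 (SE 0.146, adjusted p = 0.0036) and Mcm2 at 0.61. Rfc4 stood at 10.46, 10.53 and 10.09 on the wild type arrays, 10.41, 10.55 and 10.73 on the APC mutant arrays, 10.64, 11.02 and 10.92 on the Olfm4 mutant arrays, 10.94, 11.14 and 11.15 beside tumours and 11.91, 11.86 and 11.68 within them, with no overlap between wild type and adjacent arrays. The mitosis genes that rose were Cdc20 at 1.51 (SE 0.303, adjusted p = 0.0034) and Bub1 at 0.79. Cdc20 stood at 10.56, 9.94 and 10.15 on the wild type arrays, 10.69, 10.83 and 10.60 on the APC mutant arrays, 10.27, 11.84 and 11.09 on the Olfm4 mutant arrays, 11.38, 11.89 and 11.91 beside tumours and 12.33, 12.39 and 12.50 within them, with the 3 Olfm4 mutant arrays spread from wild type to adjacent levels. Plk1 fell by 1.13 (adjusted p = 0.0069) and Tyms by 0.55 (adjusted p = 0.046). In the lists that hold no member the shares called higher were larger. There 16 of 40 other replication genes were higher and 2 lower, and 16 of 48 other mitosis genes higher and 4 lower. The count of 10 called members went to 6 without wild type replicate 2, to 5 without adjacent replicate 2 and to 4 without adjacent replicate 3. It was 3 with arrays of an animal averaged and 0 with the spike-in covariate, whose signal was 2.12 in wild type and 4.13 in adjacent arrays.

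In adjacent tissue a further probe set was called higher for Cdt1 and for Cdc20, but most calls of other probe sets were lower. The 41 members have 90 probe sets, and 31 members have more than 1. In adjacent against wild type, with p-values adjusted over all 45037 probe sets, the kept probe sets gave 8 higher and 1 lower call, and the 49 others 2 higher and 9 lower. Those 2 were of Cdt1 at 0.74 (adjusted p = 0.015) and Cdc20 at 1.10 (adjusted p = 0.011). The remaining probe set of each gene gave 0.005 and 0.045, with means of 3.47 and 9.34 over the 15 arrays. That of Cdt1 was thus near the floor of the table. Mcm2 gave 0.61 (adjusted p = 0.038) by its brightest probe set and -0.85 (adjusted p = 0.0014) by its other one. Rrm2 gave 0.76 by the brightest and -0.58 by the dimmest of 3. Rfc4 gave -0.25 (adjusted p = 0.3) by its brightest probe set without the suffix _x_at or _s_at. Bub1 gave -0.13 (adjusted p = 0.88) by its most variable one. Those rises were not borne out, though neither of these values was called. Rrm1, Rfc3 and Cenpe each had a dimmer probe set at -2.22, -2.42 and -1.66, where the kept ones stood at -0.52, -0.26 and 0.79.

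In tumour against adjacent tissue no member had calls in both directions. There the kept probe sets gave 27 higher calls over all probe sets, the others 23 higher, and both 0 lower. The 2 Mcm2 probe sets then gave 1.48 and 1.54, and those of Mcm5 1.23, 1.35 and 0.87. Further Rrm2 probe sets rose by 1.38 and 1.37 (adjusted p = 0.00025 and 0.034), and a further Ccna2 probe set by 0.75 (adjusted p = 0.0056). Of the further Kif11 probe sets, one rose by 0.69 (adjusted p = 0.026) and the dimmer gave -0.05 (adjusted p = 0.93). The kept probe sets of these genes were not called. Against wild type, tumour calls went both ways for Mcm3, Gins2, Rrm1, Rfc3, Kif11 and Cenpe. The spike-in signal of 2.12 for wild type, 4.13 for adjacent and 4.94 for tumour arrays moved beside it, and its part in this split was not tested.

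**Figure D5:**
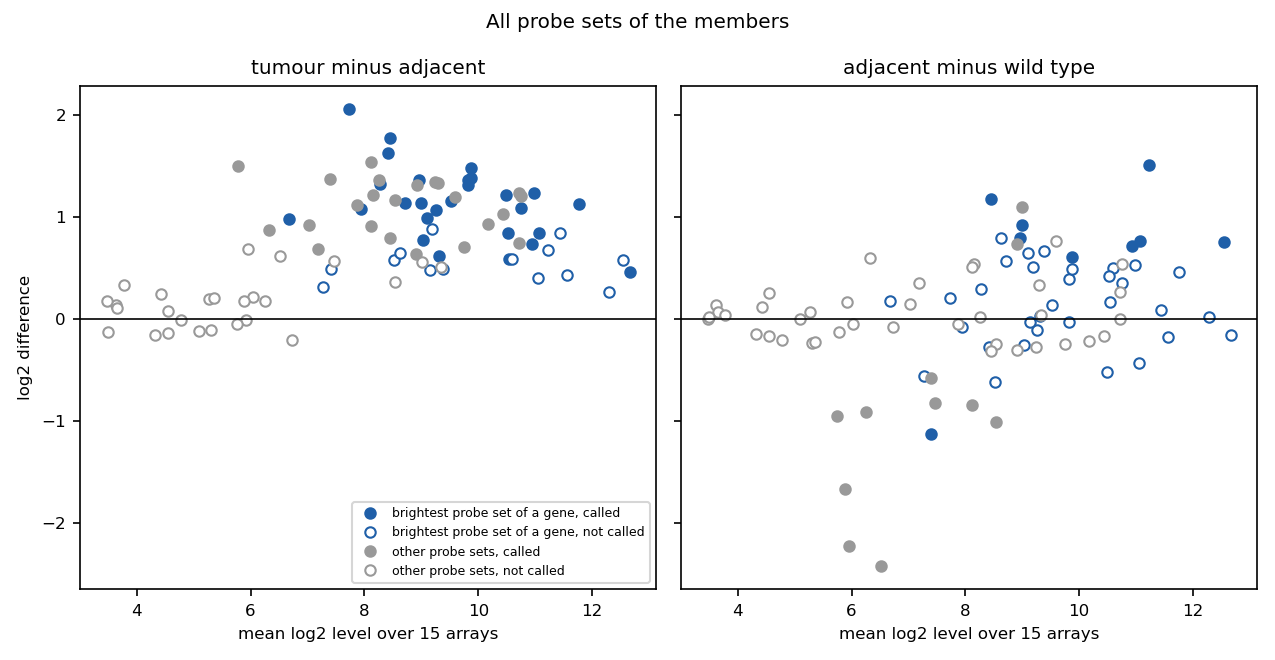
Each of the 90 probe sets of the members is placed by its mean log2 level over 15 arrays (horizontal) and its log2 difference (vertical), tumour minus adjacent on the left and adjacent minus wild type on the right, filled where the adjusted p over all probe sets is under 0.05. On the left every filled point lies above 0, and on the right 10 lie above and 10 below, the grey ones mostly below.

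Adjacent tissue and APC mutant colon are both APC+/- and differ in Olfm4. Adjacent tissue was also taken beside a tumour, so Olfm4 genotype and nearness to a tumour cannot be told apart, here or in the interaction. Mcm10 at 0.99 (SE 0.289, adjusted p = 0.034), Rfc4 at 0.51, Ccne2 at 0.90, Cdc20 at 1.02 and Bub1 at 0.83 rose and Plk1 fell at -1.02 (SE 0.258, adjusted p = 0.019), which makes 5 of 41 higher and 1 lower, against 9.88% and 7.45% of all genes. Without APC mutant replicate 1 this count of 6 went to 0, without APC mutant replicate 2 to 3, without adjacent replicate 2 to 2 and without adjacent replicate 3 to 1. It was 0 with the spike-in covariate. By other probe sets Rfc4 gave -0.069, Cdc20 -0.17 and Bub1 -0.58, none of them called (adjusted p over all probe sets = 0.79, 0.68 and 0.4). A further Cdc20 probe set gave 0.96 (adjusted p = 0.028). The other Mcm10 probe sets gave 0.78 (adjusted p = 0.046) and -0.015 (adjusted p = 0.96). The latter was dim, with a mean of 4.55 over the 15 arrays against 8.14 for the former. In adjacent against Olfm4 mutant colon, which differs in Apc and again in nearness to a tumour, 0 members and 0.044% of all genes were called, with 2 members and 2960 of all genes at an unadjusted p under 0.05. The interaction, the gap between adjacent and APC mutant colon set against the gap between Olfm4 mutant and wild type colon, called 0 members and 0% of all genes, with 0 members and 1901 of all genes at an unadjusted p under 0.05.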

How the data were processed

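Total RNA from colon pieces was hybridised to 15 Affymetrix Mouse430_2 arrays, 3 in each of 5 groups. The deposited values are on a log2 scale and were made by the authors with RMA in Partek 6.5, per the submitters' processing notes. RMA corrects background, equalises distributions between arrays and summarises probes, so levels are relative. Of 45101 probe sets, 64 controls, 932 with several symbols and 9160 with none were left out, and the brightest probe set of each of 18193 genes was kept. Differences were tested with limma 3.58.1 in R 4.3.3, as contrasts of 5 group means over all 15 arrays, with Benjamini-Hochberg adjustment within each comparison and a threshold of 0.05. The scripts were tested on simulated data. P-values measure the spread between these arrays, and the double mutant arrays come from 2 animals by their titles, although the labels speak of 3 mice per category. Adjacent and tumour arrays of the same number come from the same animal by their titles, and deviations from group means correlated at 0.281, -0.0155 and 0.182 for replicates 1, 2 and 3. The spike-in signal is the mean 3-prime minus 5-prime difference of 4 bacterial RNAs. Members and lists were chosen with earlier results of these data known. Values on every array are given for Mcm2, Pcna, Mki67, Top2a, the 6 largest of each group and members called in non-tumour comparisons with wild type, and the companion genes named come from a fixed list. The number of arrays limits the precision.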

Additional observations from a re-analysis of the deposited data

How the results depend on the processing

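The rise of members in tumour against adjacent tissue held its count within 1.5 times of 29 in planned settings other than the spike-in covariate (10). It was 18 without the first animal, a setting added after the data were seen, where fewer arrays enter. Adjacent and tumour arrays were also fitted with a replicate block. With the replicate number as the block 29 members were called, 27 of them shared with the fit without it, and with the animal as the block 31, 28 of them shared. Leaving out 1 array at a time gave 23 to 28 for tumour against adjacent, 32 to 34 against wild type, 29 to 32 against APC mutant and 27 to 32 against Olfm4 mutant. It gave 4 to 11 for adjacent against wild type, 0 to 7 against APC mutant and 0 to 2 against Olfm4 mutant. For Olfm4 mutant against wild type it gave 0 to 2, and for APC mutant against wild type and the interaction 0 in each.

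With the spike-in covariate 0 members were called in tumour against wild type, APC mutant or Olfm4 mutant colon and in adjacent against wild type or APC mutant colon. For adjacent against wild type the count of 10 became 6 with the mean of probe sets, 17 with array weights, 6 with the animal as a random block and 3 with arrays of an animal averaged. For adjacent against APC mutant the count of 6 became 11 with array weights, 1 with the random block and 1 with averaging. Adjacent against Olfm4 mutant went from 0 to 6 with array weights. Olfm4 mutant against wild type went from 0 to 1 with the mean of probe sets, 5 with the most variable probe set, 1 with genes above the median mean and 2 with array weights. Where the construction does not show it, the cause was not tested.

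Turns in sign were followed for tumour against adjacent tissue and for called members of adjacent tissue against wild type and APC mutant colon. Tumours against the other groups were not followed in this way. Most turns were in adjacent tissue, several were close to 0, and none of the covariate values below was called. Against wild type, the covariate gave -0.35 for Mcm2, -0.32 for Mcm10, -0.65 for Cdt1, -0.097 for Rrm2, -0.012 for Pole, -0.11 for Cdc20 and -0.81 for Bub1. Against APC mutant it gave -0.14 for Mcm10, -0.04 for Rfc4, -0.014 for Ccne2, -0.45 for Cdc20 and -0.63 for Bub1. The mean of probe sets gave -0.12 for Mcm2 against wild type. The most variable probe set gave -0.13 and -0.58 for Bub1 against wild type and APC mutant, and -0.005 for Nusap1 in tumour against adjacent. Those probe sets of Bub1 and Nusap1 were dim, with means of 5.78 and 4.77. Probe sets without the suffixes _x_at or _s_at, a setting added after the data were seen, gave -0.85 for Mcm2 and -0.25 for Rfc4 against wild type, and -0.069 for Rfc4 and -0.17 for Cdc20 against APC mutant.

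Cyclic loess moved the median of all genes in adjacent against wild type from 0.13 to 0.09. It moved the share of calls that were higher from 68.5% to 52.9% in Olfm4 mutant against wild type. In adjacent tissue that share moved from 63.6% to 56.2% against wild type and from 57% to 48.9% against APC mutant. Against Olfm4 mutant few genes were called, and the share moved from 87.5% of 8 calls to 58.7%, with 27 higher and 19 lower.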
